A study of Mus musculus with 4 samples.

Results

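The genes of the unfolded protein response (UPR) and the chaperones of the endoplasmic reticulum (ER) were followed as a set of 35 genes, taken by gene symbol from the 23924 genes of the expression matrix. The rule used gene symbols and no measured value, but the members were chosen with earlier results of these data known. It holds 15 ER chaperones and folding enzymes, 3 sensors of ER stress, 4 stress-induced transcription factors, 5 stress-response effectors, 6 genes of ER-associated degradation and 2 genes of translocation and export. Expression was measured in tail tip fibroblasts (TTF) of male mice of the line C57BL/6J-TgBAC8-2087, and the genotype comparison asks how transcription differs in cells that express *Xist* from an autosomal transgene. The 2 transgenic (TG) libraries came from Tg2087/+ cells, which carry the BAC sequence TgBAC8 of the X-inactivation center with *Xist* under its native promoter. TgBAC8 also holds *Jpx*, *Tsix*, *Xite* and *Tsx*, and the line carries 2 copies of it at a single autosomal site. The 2 wildtype (WT) libraries came from cells of +/+ littermates. Cells of both genotypes were grown in the same medium, were immortalized with the large T antigen of Simian virus 40 and were tetraploid, and no further treatment is given for either genotype. The age of the mice is not given in the sources used here. Separate animals or cultures are not stated for the 2 libraries within a genotype. The p-values therefore measure the spread between these libraries, which may be technical. The genotypes came from different littermates, and the number of animals or cell lines per genotype is not given. A difference between animals or cell lines therefore cannot be told apart from one of genotype.

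Proteins that enter the secretory pathway are folded in the ER by chaperones such as BiP, encoded by *Hspa5*, and by disulfide isomerases. When unfolded proteins accumulate, the membrane sensors IRE1, PERK and ATF6 start the UPR, in which XBP1 and cleaved ATF6 raise chaperone and degradation genes, while PERK phosphorylates eIF2-alpha and thereby favours translation of ATF4. ATF4 is shared with other kinases of the integrated stress response and turns on genes of amino acid supply, and fibroblasts, which secrete collagen, keep a large ER folding capacity without added stress.

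Expression values were FPKM, the fragments of a gene scaled to its length and to the size of the library. Whole reads recovered from the FPKM values gave library totals from 9465712 to 14639946, so that the deepest library, WT 2, held 1.55 times the reads of the shallowest, WT 1. *Xist*, a gene carried by the transgene, was listed at 0 and 0.108 FPKM in WT. It measured 2.31 and 2.28 FPKM in TG, so all 4 libraries matched their labels. Of 12 fibroblast markers, 9 reached 1 FPKM and *Vim* lay between 2147 and 2547 FPKM, but *Lum* was at 0 in every library, *Dcn* reached no more than 0.878 FPKM and *Fap* no more than 0.0802 FPKM. The summed fibroblast markers measured 6575 and 6300 FPKM in WT against 5909 and 5639 in TG. Of the 9 that were tested, 6 were lower in both TG libraries and 2 higher. *Pdgfrb* was 48.7% lower (adjusted p = 0.0165 by limma), *Col1a1* 42.9% (0.0491), *Fn1* 43.9% (0.0803) and *Col1a2* 36.0% (0.143). The 2 higher ones were *Vim*, by 11.2% (0.737), and *Pdgfra*, which reached 1 FPKM only in TG 2. *Pdgfra* measured 0.0999 and 0.307 FPKM in WT against 0.823 and 1.13 in TG (adjusted p = 0.218 by limma and 0.0345 by voom). Marker lists of keratinocytes, endothelium, immune cells, muscle, Schwann cells and adipocytes summed to between 0.0360 and 12.9 FPKM in every library, with *Acta1* of the muscle list 50.6% lower in TG (adjusted p = 0.0374 by limma). A list for plasma cells reached 86.1 to 133 FPKM through *Sdc1*, with 4 of its 6 markers at 0 throughout. The part of these marker levels in the results was not tested.

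TG was compared with WT by limma on log2(FPKM + 0.5) over 11524 genes, those whose mean FPKM was 0.5 or more. A gene was called where its Benjamini-Hochberg adjusted p was under 0.01 and its log2 fold change at least 1 in size. Of the 35 members, 34 were tested, and 0 were called in either direction, against 0.469% of all tested genes called lower and 0.607% called higher. Without adjustment, limma gave p under 0.05 for 3 members lower in TG, which were *Asns*, *Chac1* and *Trib3*, and 1 higher, *Sec61b*, beside 6.88% of all tested genes lower and 12.7% higher at that threshold. At an adjusted p under 0.05 with any fold change, the same 3 members were lower and 0 were higher. The same rule took 1.54% of all tested genes as lower and 2.59% as higher.

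The median log2 fold change of the 34 tested members was -0.12, beside 0.07 for all tested genes. Both TG libraries lay below both WT libraries for 14 members (41.2%) and above them for 2 (5.88%), and the genotypes overlapped for 18. Over all tested genes, the TG libraries lay below in 20.3% and above in 30.2%. The gap between the genotypes exceeded both gaps between libraries of one genotype for 13 of the 34 members, a share near the 36.8% of all tested genes. These are bulk samples, in which a smaller share of expressing cells and less RNA per cell cannot be told apart. With 2 libraries per genotype, the smallest p that exact permutation of the labels allows is 0.333, so the p-values given here rest on the spread that limma estimates across genes.

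**Figure D1:**
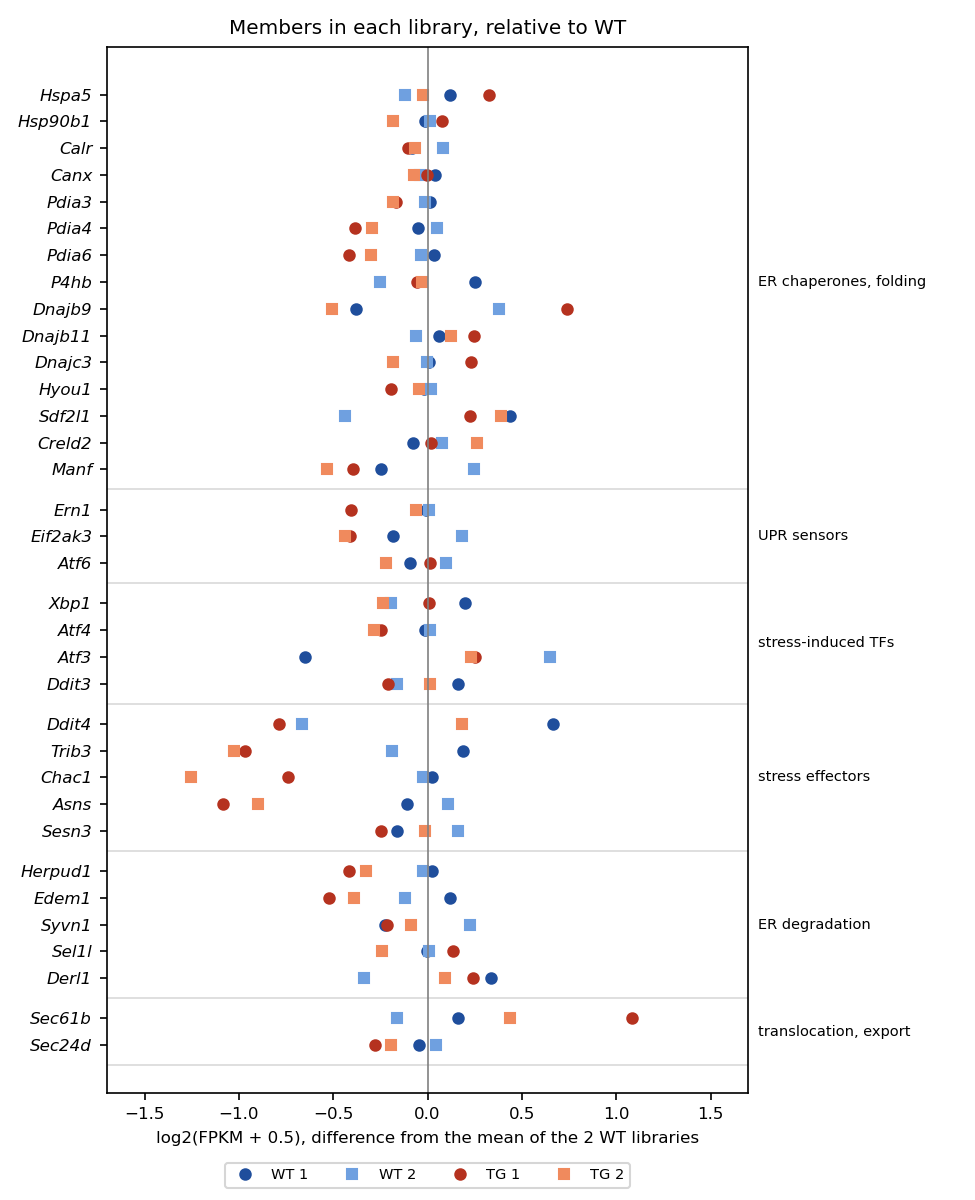
Each row is a member, and each point gives log2(FPKM + 0.5) of 1 library as its difference from the mean of both WT libraries, with WT in blue and TG in red. *Asns*, *Trib3* and *Chac1* have both TG libraries at least 0.7 log2 units below the WT mean, whereas the WT and TG points of most chaperones lie within 0.5 log2 units of it.

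The stress-response effectors *Asns*, *Trib3* and *Chac1* showed the largest differences of the set. *Asns* makes asparagine from aspartate and is a classical target of ATF4. It measured 205 and 239 FPKM in WT against 104 and 118 in TG, from 2248 to 6325 reads per library. The genotypes did not overlap, and the TG mean was 49.8% ± 7.09 (SD, n = 2 per genotype) lower. The log2 fold change was -0.99 ± 0.18 (SE), with an adjusted p of 0.0139 by limma.

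*Trib3*, a pseudokinase that is induced by ATF4 and CHOP and restrains ATF4, measured 23.6 and 18.0 FPKM in WT against 10.3 and 9.89 in TG. The TG libraries were nearly equal, both lay below both WT libraries, and the TG mean was 51.5% ± 9.31 (SD) lower. Its log2 fold change was -0.996 ± 0.21 (SE), with an adjusted p of 0.0267 by limma. *Chac1*, an enzyme that degrades glutathione and is induced by ATF4, measured 27.4 and 26.4 FPKM in WT against 15.9 and 11.005 in TG. Here the WT libraries were nearly equal while TG 2 lay below TG 1. The log2 fold change of *Chac1* was also -0.996, with an SE of 0.22 and an adjusted p of 0.0301.

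All 3 genes missed the adjusted p threshold of 0.01 and, narrowly, the fold threshold, and 0 members were called at that p with a log2 fold change of at least 0.5. They were called lower by limma voom on the recovered reads, which called 3 members lower and 0 higher, beside 1.29% of all tested genes called lower and 1.03% called higher. The voom log2 fold changes were -1.06 for *Asns* with an adjusted p of 1.4e-04, -1.08 for *Trib3* with 0.00597, and -1.08 for *Chac1* with 0.00639. With 1 library left out, which leaves a genotype with 1 library, their log2 fold changes stayed at -0.74 or below, but few adjusted p by limma stayed under 0.05. That of *Asns* was 0.0590 without WT 1, 0.144 without WT 2, 0.0741 without TG 1 and 0.0311 without TG 2. That of *Chac1* was 0.0221 without TG 1 and between 0.140 and 0.213 without any other library, and that of *Trib3* was between 0.0725 and 0.142.

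The remaining effectors gave no such difference. *Ddit4*, which encodes the mTORC1 inhibitor REDD1, measured 251 and 99.6 FPKM in WT against 91.3 and 180 in TG. Its WT libraries differed 2.52-fold and its TG libraries 1.97-fold, so that the genotypes overlapped (log2 fold change -0.30 ± 0.40, adjusted p = 0.731 by limma). *Sesn3*, a sestrin that restrains mTORC1, was low throughout at 2.42 and 3.16 FPKM in WT against 2.25 and 2.74 in TG.

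The short sequences around these genes are shown because the 3 genes that passed an adjusted p under 0.05 share a match to the C/EBP-ATF response element (CARE), the composite site that ATF4 heterodimers are known to bind, written here as TGATGNAA. Promoters of 250 bases before to 50 bases after the RefSeq start on GRCm38.p6 were available for 31 of the 35 members, and both strands were searched. The element was found in 3 of 5 effectors, in 1 of 4 stress-induced transcription factors (*Atf3*), in 1 of 5 degradation genes (*Herpud1*) and in 0 of 13 chaperones, beside 4.51% of the 27025 genes with a promoter. Capitals mark the element, which lies on the reverse strand in *Chac1* and *Trib3*. *Asns* is shown for chr6:7693210-7693459 on the minus strand and *Chac1* for chr2:119350992-119351241 on the plus strand. *Trib3* is shown for chr2:152344028-152344057 on the minus strand, where the element starts at base 15, with the start site counted as base 1.
Asns: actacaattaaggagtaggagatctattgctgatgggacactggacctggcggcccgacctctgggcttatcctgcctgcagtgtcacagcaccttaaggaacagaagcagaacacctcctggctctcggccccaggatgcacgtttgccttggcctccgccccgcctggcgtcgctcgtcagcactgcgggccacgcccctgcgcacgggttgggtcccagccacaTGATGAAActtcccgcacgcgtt
Chac1: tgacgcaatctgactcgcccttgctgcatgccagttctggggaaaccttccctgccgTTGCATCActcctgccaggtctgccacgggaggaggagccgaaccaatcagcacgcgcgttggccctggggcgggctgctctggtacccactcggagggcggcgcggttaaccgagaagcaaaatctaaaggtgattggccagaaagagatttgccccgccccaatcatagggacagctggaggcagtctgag
Trib3: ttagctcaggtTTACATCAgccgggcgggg
A match describes these letters only, and binding was not measured. The effectors include known ATF4 targets, so matches among them were likely in advance and are no result of these data. *Atf3* and *Herpud1*, which hold the element too, had log2 fold changes of 0.24 and -0.37, so that the log2 fold changes of members with the element ran from -0.996 to 0.24.

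**Figure D2:**
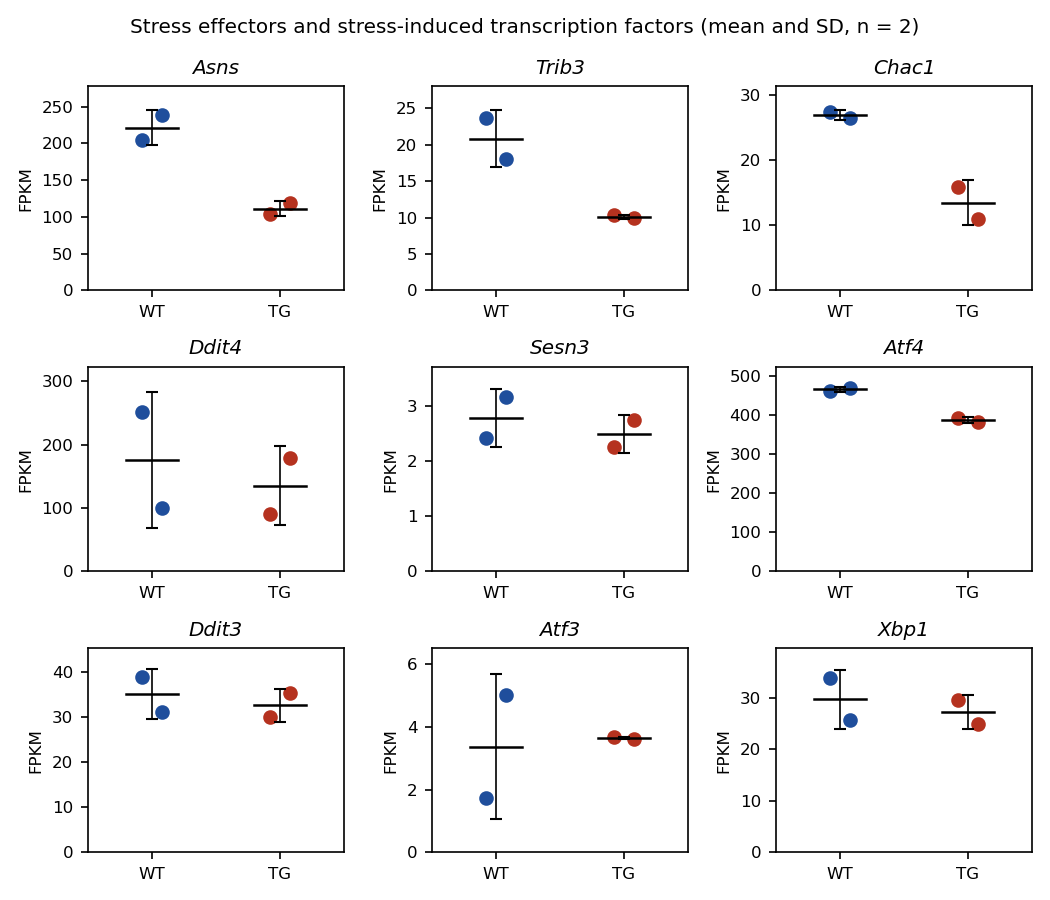
Each panel plots FPKM of 1 gene on an axis from 0, with a point for each library, the mean as a line and the SD as a bar (n = 2 per genotype). *Asns*, *Trib3*, *Chac1* and *Atf4* have TG points below both WT points, while *Ddit4*, *Sesn3*, *Ddit3*, *Atf3* and *Xbp1* overlap between the genotypes.

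Of the 4 stress-induced transcription factors, 0 passed an adjusted p of 0.05 by limma or voom and 0 had an unadjusted p under 0.05 by limma. Their median log2 fold change was -0.11. *Atf4* was among the most abundant members, with 462 and 470 FPKM in WT against 392 and 383 in TG. Its genotypes did not overlap, and the TG mean was 16.8% ± 1.71 (SD) lower, but the log2 fold change of -0.26 ± 0.17 did not pass the test (adjusted p = 0.451 by limma). ATF4 is controlled largely at translation, which RNA levels do not measure.

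*Ddit3* encodes CHOP, the factor of prolonged ER stress. It measured 39.1 and 31.2 FPKM in WT against 30.1 and 35.3 in TG. The libraries of each genotype were spread over the same range, with a log2 fold change of -0.10 ± 0.19. Exons of *Ddit3* share 68 bases with the opposite-strand gene *Mars*, and the strand setting of the counting is not given in the sources used here.

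*Xbp1*, whose mRNA is spliced by IRE1, measured 33.8 and 25.6 FPKM in WT against 29.5 and 24.9 in TG, a log2 fold change of -0.11 ± 0.20. Spliced and unspliced *Xbp1* are summed in a value per gene. *Atf3*, an early stress-induced repressor, measured 1.73 and 5.01 FPKM in WT from 30 and 134 reads, and 3.67 and 3.61 FPKM in TG from 80 and 73 reads. The WT libraries of *Atf3* differed 2.89-fold and enclosed both TG libraries.

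The 3 sensors were expressed at low levels and 0 passed an adjusted p of 0.05 by limma or voom (lowest adjusted p = 0.376 by limma), with 0 at an unadjusted p under 0.05. *Eif2ak3*, which encodes PERK, measured 5.52 and 7.27 FPKM in WT against 4.65 and 4.55 in TG. Both TG libraries were the lower ones, with a log2 fold change of -0.42 ± 0.24, and 485 bases of its exons overlap an opposite-strand gene model. *Ern1*, which encodes IRE1-alpha, was at 2.79 and 2.82 FPKM in WT against 1.99 and 2.67 in TG, from 91 to 158 reads per library. *Atf6*, the precursor of the cleaved transcription factor, overlapped between the genotypes at 10.8 and 12.4 FPKM in WT against 11.6 and 9.83 in TG. The median log2 fold change of the sensors was -0.23.

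The ER chaperones and folding enzymes differed little between the genotypes. All 15 were tested, their median log2 fold change was -0.04, and their adjusted p by limma ran from 0.284 to 0.967, with 0 at an unadjusted p under 0.05 and 1 (*Manf*) at an adjusted p under 0.05 by voom. Both TG libraries were lower for 5, higher for 1 and overlapped with WT for 9. *Hspa5*, the ER HSP70 that holds the sensors inactive, measured 259 and 219 FPKM in WT against 299 and 234 in TG. TG 2 lay between the WT libraries, and the log2 fold change was 0.15 ± 0.19.

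The other abundant folding factors also lay close to their WT levels. *Calr* and *Canx*, the lectin chaperones of glycoproteins, had log2 fold changes of -0.09 ± 0.19 and -0.04 ± 0.17. *Calr* measured 1162 and 1299 FPKM in WT against 1143 and 1173 in TG. *Canx* measured 177 and 168 FPKM in WT against 172 and 164 in TG. *Hsp90b1*, the ER HSP90 also called GRP94, had 467 and 476 FPKM in WT against 498 and 415 in TG, with the TG libraries on either side of WT and 415 exonic bases shared with the opposite-strand gene *1810014B01Rik*, which reached no more than 1.66 FPKM. *P4hb*, a disulfide isomerase that is also the beta subunit of collagen prolyl 4-hydroxylase, was at 688 and 486 FPKM in WT against 557 and 567 in TG.

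Other disulfide isomerases were lower in both TG libraries, without passing the test. *Pdia6* measured 308 and 293 FPKM in WT against 225 and 244 in TG, a reduction of the mean by 21.9% ± 5.24 (SD). *Pdia4* measured 127 and 136 FPKM in WT against 101 and 107 in TG, a reduction by 21.0% ± 5.23. *Pdia3*, the partner of the lectin chaperones, measured 324 and 319 FPKM in WT against 286 and 283 in TG, a reduction by 11.4% ± 1.31. The log2 fold changes of *Pdia6*, *Pdia4* and *Pdia3* were -0.36, -0.34 and -0.17, with adjusted p of 0.284, 0.304 and 0.629 by limma.

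*Manf*, a secreted ER stress protein, had the highest level of all members at 2332 and 3275 FPKM in WT against 2103 and 1912 in TG. The TG libraries were both below WT, but WT 2 stood well above WT 1 and the log2 fold change was -0.46 ± 0.23 (adjusted p = 0.302 by limma). By voom its log2 fold change was -0.53 with an adjusted p of 0.0317, which made it the fourth of 4 members lower at an adjusted p under 0.05 by voom, beside 4.29% of all tested genes. By voom 0 members were higher at that threshold, beside 3.43%. *Manf* exons share 146 bases with the opposite-strand gene *Dcaf1*, 166 with the opposite-strand *4930524O07Rik*, whose level was not analysed here, and 14 with *Rbm15b*. *Dcaf1* measured between 11.6 and 13.7 FPKM and *Rbm15b* between 37.8 and 51.3 FPKM. *Manf* held 250755 reads over the 4 libraries, beside 29132 for *Hspa5*, and its gene model spans chr9:106838312-106891979. The counting annotation and strand setting are not given, and whether all these reads stem from *Manf* was not tested.

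The co-chaperones of BiP gave values on both sides of WT. *Dnajb11* was the only chaperone higher in both TG libraries, at 51.0 and 46.8 FPKM in WT against 58.1 and 53.3 in TG. Its log2 fold change was 0.19 ± 0.17 (adjusted p = 0.612 by limma). *Dnajc3*, an inhibitor of PERK also known as P58IPK, measured 14.3 and 14.2 FPKM in WT against 16.8 and 12.5 in TG. Its log2 fold change was 0.02 and turned to -0.04 under upper-quartile scaling. *Dnajb9*, a J-domain protein that binds IRE1, measured 4.19 and 7.44 FPKM in WT against 9.68 and 3.79 in TG, a 2.55-fold gap between the TG libraries.

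*Hyou1*, the exchange factor of BiP, measured 52.2 and 53.5 FPKM in WT against 46.2 and 51.3 in TG. Both TG libraries were below WT, and its log2 fold change was -0.12 ± 0.17. *Sdf2l1*, a cofactor of ERdj3 in the BiP cycle, measured 52.9 and 28.6 FPKM in WT against 45.6 and 51.1 in TG. *Creld2*, a resident ER protein induced by ER stress, measured 82.9 and 92.3 FPKM in WT against 88.6 and 105 in TG. Both overlapped between the genotypes, with log2 fold changes of 0.31 ± 0.26 and 0.14 ± 0.18.

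The ER stress response element (ERSE), to which NF-Y and ATF6 are known to bind, was searched on both strands of the same promoters as CCAAT and CCACG with 9 bases between them. It was found in 7 of 13 chaperones (53.8%) and in 2 of 5 degradation genes, *Syvn1* and *Derl3*, beside 37 of 27025 genes (0.137%). ATF6 is known to raise chaperone and degradation genes, so matches among them were likely in advance and are no result of these data. The *Hspa5* promoter at chr2:34771840-34772089 on the plus strand is shown with the element in capitals, followed by the elements of the other chaperones, read along the strand that holds the element, with the fixed letters in capitals and the spacer in lower case.
Hspa5: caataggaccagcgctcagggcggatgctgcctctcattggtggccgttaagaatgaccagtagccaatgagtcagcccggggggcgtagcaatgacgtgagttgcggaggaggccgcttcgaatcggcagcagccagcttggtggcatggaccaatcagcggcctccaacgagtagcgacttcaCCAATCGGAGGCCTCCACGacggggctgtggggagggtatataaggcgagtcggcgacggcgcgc
Calr: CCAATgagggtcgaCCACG
Canx: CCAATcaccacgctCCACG
Creld2: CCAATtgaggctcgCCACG
Dnajc3: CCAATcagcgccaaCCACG
Hsp90b1, upstream: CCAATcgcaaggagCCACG
Hsp90b1, downstream: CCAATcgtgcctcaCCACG
Pdia6: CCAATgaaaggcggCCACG
These elements lay at chr8:84847075-84847093 in *Calr*, chr11:50325800-50325818 in *Canx*, chr15:88819520-88819538 in *Creld2*, chr14:118937827-118937845 in *Dnajc3*, chr10:86705638-86705656 and chr10:86705533-86705551 in *Hsp90b1*, and chr12:17266491-17266509 in *Pdia6*. The 7 chaperones with the element had log2 fold changes from -0.36 in *Pdia6* to 0.15 in *Hspa5*. A variant element, ERSE-II, searched as ATTGG and CCACG with 1 base between them, was found in *Dnajb11* and *Herpud1*, beside 0.0444% of all genes, and the UPR element, searched as TGACGTGG, in *Sec24d*, beside 0.714%.

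**Figure D3:**
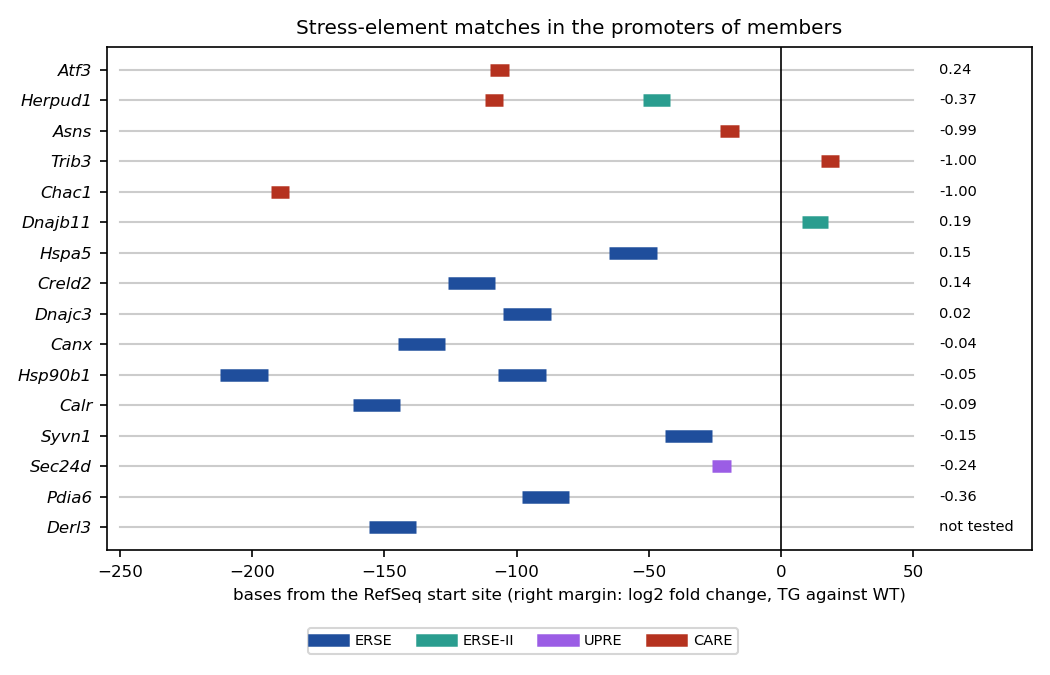
Each row is the promoter of a member from 250 bases before to 50 bases after the RefSeq start, with blocks at the matches to ERSE, ERSE-II, UPRE and CARE and the log2 fold change, TG against WT, at the right. The ERSE matches of the chaperones lie upstream of the start beside fold changes from -0.36 to 0.15, whereas the CARE matches stand beside fold changes from -0.996 to 0.24.

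Of the 6 genes of ER-associated degradation, 5 were tested, with a median log2 fold change of -0.15 and a lowest adjusted p of 0.277 by limma. *Herpud1*, a membrane scaffold of the degradation complex, measured 43.5 and 42.1 FPKM in WT against 32.0 and 34.1 in TG. *Edem1*, which marks misfolded glycoproteins for removal, measured 10.8 and 9.06 FPKM in WT against 6.74 and 7.44 in TG. Both genes were lower in both TG libraries, by 22.8% ± 3.85 and 28.6% ± 10.2 (SD) of the mean, with log2 fold changes of -0.37 ± 0.17 and -0.45 ± 0.22.

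The members of the ubiquitin ligase complex showed no difference beyond the spread between libraries. *Syvn1*, the ligase HRD1, was at 16.6 and 22.9 FPKM in WT against 16.7 and 18.4 in TG, and *Sel1l*, its adaptor, at 14.2 and 14.3 FPKM in WT against 15.7 and 12.0 in TG. *Derl1*, a channel component, was at 24.9 and 15.4 FPKM in WT against 23.2 and 20.9 in TG. All 3 overlapped between the genotypes. The log2 fold changes of *Syvn1*, *Sel1l* and *Derl1* were -0.15 ± 0.21, -0.05 ± 0.21 and 0.17 ± 0.24 (SE), and the WT libraries of *Derl1* differed 1.62-fold. Exons of *Syvn1* share 91 bases with the opposite-strand gene *Mrpl49*, which measured 87.0 to 102 FPKM. *Derl3* was below the filter at 0.354 and 0.229 FPKM in WT from 4 reads each, and at 0 and 0.454 FPKM in TG from 0 and 6 reads. A count of 0 in TG 1 allows up to 3 reads, or 0.211 FPKM, so its levels could not be compared at this depth.

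The 2 genes of translocation and export differed in opposite directions. *Sec61b*, the beta subunit of the translocon channel, measured 53.7 and 42.9 FPKM in WT against 102 and 65.3 in TG. Both TG libraries were above WT, and its log2 fold change of 0.76 ± 0.23 was the highest among the members but had an adjusted p of 0.0987 by limma. With TG 2 left out the value was 1.08 with an adjusted p of 0.0325, and with TG 1 left out it was 0.44. *Sec24d*, a cargo subunit of the COPII coat used by collagen, measured 37.2 and 39.7 FPKM in WT against 31.6 and 33.5 in TG (log2 fold change -0.24 ± 0.18, adjusted p = 0.516).

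**Figure D4:**
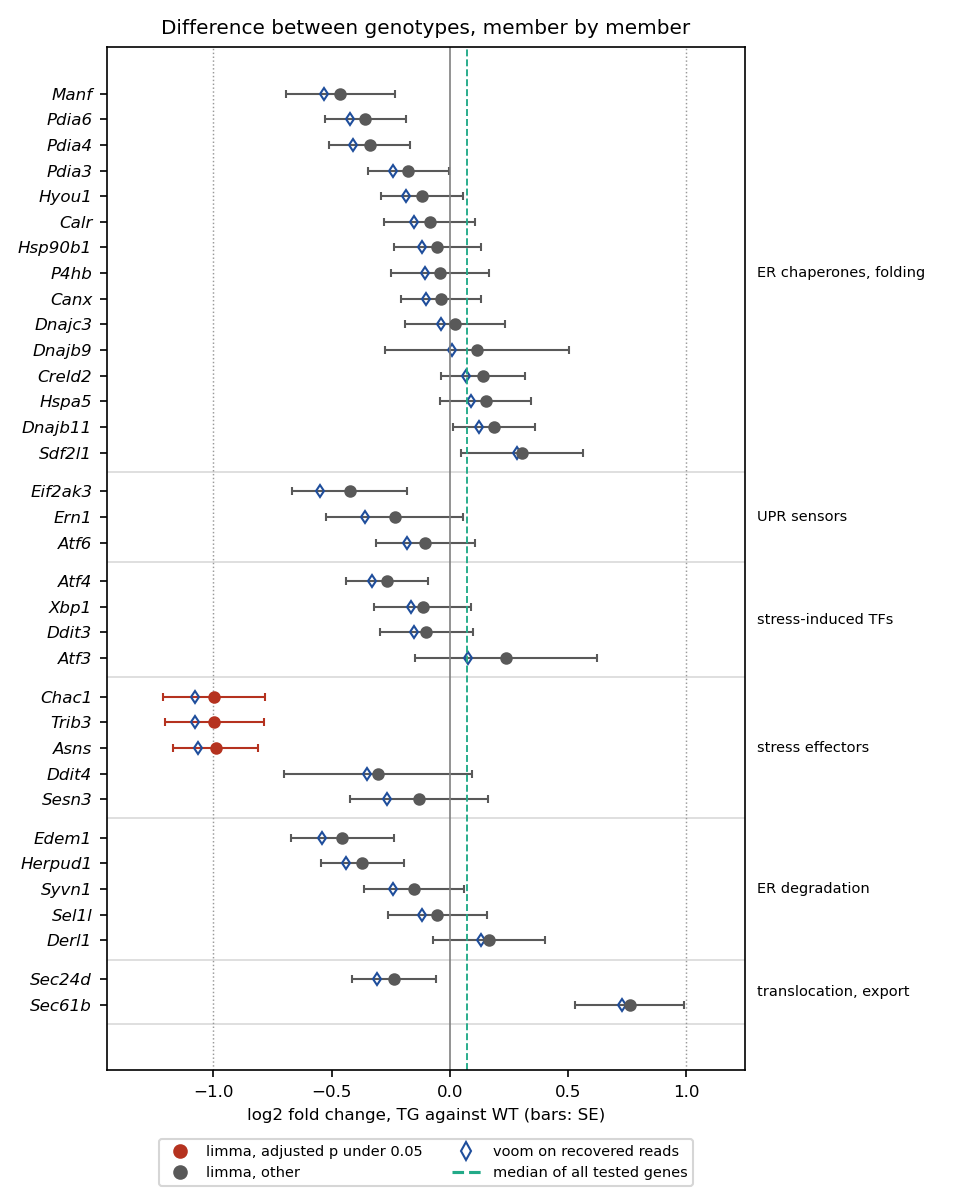
Points give the log2 fold change, TG against WT, of each tested member with its SE as a bar, red where the adjusted p by limma was under 0.05, and open diamonds give the voom estimate. The bars of *Chac1*, *Trib3* and *Asns* stand at -0.996, -0.996 and -0.99, *Sec61b* lies at 0.76, and the dashed line marks the median of all tested genes at 0.07.

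The members were set beside lists of related genes, which were also chosen with earlier results of these data known. Of 40 listed further targets of ATF4 and CHOP, 39 were in the matrix and 34 were tested. Both TG libraries were below both WT libraries for 27 of them (79.4%, beside 20.3% of all tested genes) and above for 4, and their median log2 fold change was -0.36. By limma 13 were lower and 2 higher at an unadjusted p under 0.05, beside 6.88% and 12.7% of all tested genes. By limma, too, 1 was lower and 1 higher at an adjusted p under 0.05, and by voom 7 were lower and 1 higher, beside 4.29% and 3.43% of all tested genes.

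Of these targets, *Adm2*, a secreted peptide hormone, was lower by limma at an adjusted p of 0.0377, but with few reads, 32 and 22 in WT and 3 and 1 in TG. The ratio of its summed reads was 12.9-fold (95% exact interval 4.75 to 48.9, counting error only), and voom gave an adjusted p of 0.134. *Gpt2*, which transfers amino groups between alanine and glutamate, measured 11.4 and 10.4 FPKM in WT against 5.47 and 7.48 in TG, with an adjusted p of 0.115 by limma and 0.0206 by voom. *Cebpb*, a bZIP factor that can pair with ATF4, rose from 8.95 and 8.03 FPKM in WT to 24.2 and 20.8 FPKM in TG and was called, with a log2 fold change of 1.35 ± 0.20 and an adjusted p of 0.00561. *Phgdh*, the first enzyme of serine synthesis, was at 53.6 and 34.3 FPKM in WT against 69.4 and 63.1 in TG, at a log2 fold change of 0.62.

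An aminoacyl-tRNA synthetase and an amino acid transporter of this list are given as further examples, chosen after their values were seen. *Aars*, the alanyl-tRNA synthetase, measured 269 and 307 FPKM in WT against 181 and 201 in TG, with an adjusted p of 0.0965 by limma and 0.00838 by voom. *Slc7a5*, the transporter of large neutral amino acids, measured 88.4 and 109 FPKM in WT against 72.9 and 57.9 in TG, with an adjusted p of 0.127 by limma and 0.0163 by voom. The CARE letters were found in 9 of 31 promoters of this list (29.0%), which was made of known targets, so matches were likely in advance.

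The other lists had medians between -0.06 and 0.17, beside 0.07 for all tested genes. The 27 further folding and glycoprotein quality control genes centred on a log2 fold change of -0.03, their median, with none at an adjusted p under 0.05 by limma or voom and 0 at an unadjusted p under 0.05 by limma. Their extremes were *Ero1l* at -0.35, *Pdia5* at -0.30, *Mogs* at 0.43 and *Sdf2* at 0.51. The 32 genes of the translocon, signal peptidase, oligosaccharyltransferase and COPII had a median of -0.02. Their lowest were *Sec24b* and *Sec23a*, both COPII subunits, at -0.44 and -0.43.

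The highest values of the translocon list belonged to *Spcs3* and *Sec61g*. *Spcs3*, a subunit of signal peptidase, was at 50.8 and 45.6 FPKM in WT against 107 and 85.0 in TG. Its log2 fold change was 0.98 and its adjusted p 0.0169 by limma. *Sec61g*, the gamma subunit of the same channel as *Sec61b*, had 7 and 7 reads in WT and 25 and 8 in TG, at a log2 fold change of 0.79.

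The 22 further degradation genes had a median of -0.06 and held a gene in each direction at an adjusted p under 0.05. *Selenos*, a selenoprotein of the degradation complex, measured 64.4 and 62.6 FPKM in WT against 37.4 and 32.3 in TG. Its log2 fold change was -0.86 and its adjusted p 0.0253 by limma. *Rnf5*, an ER membrane ubiquitin ligase, measured 33.7 and 26.8 FPKM in WT against 49.9 and 55.5 in TG. Its log2 fold change was 0.80 and its adjusted p 0.0446. *Dnajb14* at -0.70 and *Rnf139* at 0.49 were next in each direction. Of the 19 further UPR signalling genes, with a median of 0.04, *Wfs1* at -0.80 and *Creb3l1* at -0.40 were lowest and *Atf6b* at 0.61 and *Traf2* at 0.52 highest. Of these signalling genes, 0 had an adjusted p under 0.05 by limma or voom, and 1 lower and 2 higher an unadjusted p under 0.05 by limma.

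Chaperones of other compartments were compared as well. The 21 cytosolic heat shock genes had a median of 0.04, with *Cryab*, a small heat shock protein, at -0.96 (adjusted p = 0.0127) and *Hsp90aa1*, the inducible cytosolic HSP90, at 0.87 (adjusted p = 0.0295) by limma. *Dnajb4* at -0.46 and *Hspb8* at 0.57 came next. The list of mitochondrial chaperones and proteases, which counts the transcription factor *Atf5* among its 15 genes, had a median of 0.17. Its lowest were *Atf5* at -0.51 and *Spg7* at -0.49, and its highest *Trap1* at 0.46 and *Yme1l1* at 0.49. By limma 0 of its genes had an adjusted p under 0.05, and by voom 1, *Atf5* (adjusted p = 0.0266).

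**Figure D5:**
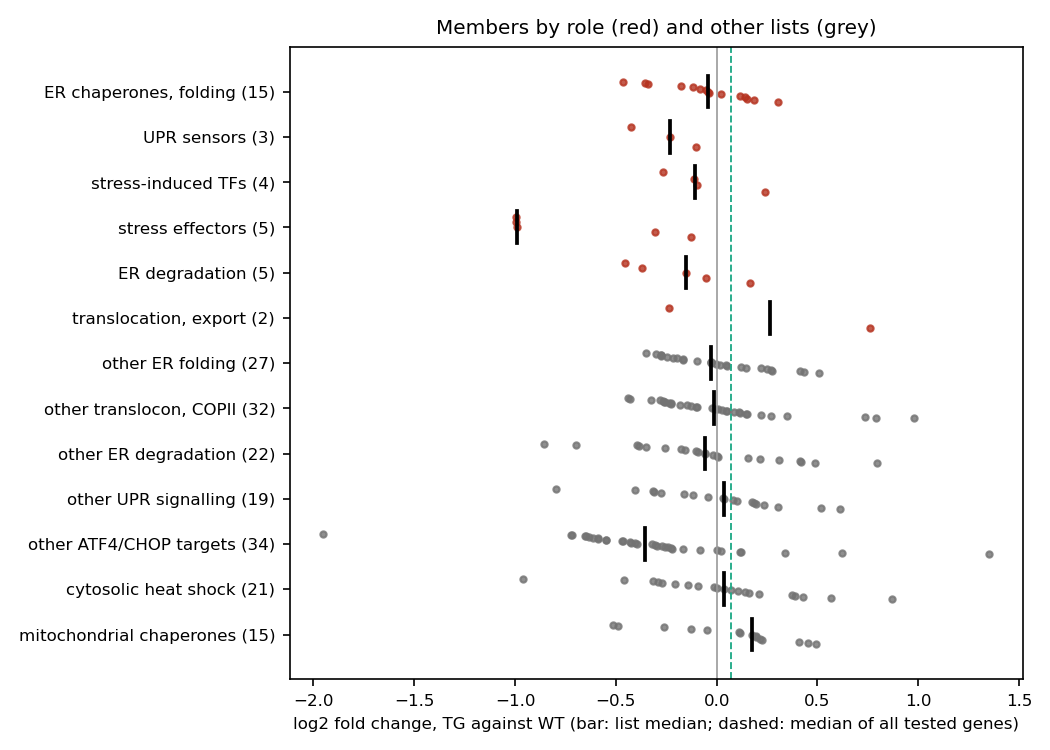
Points give log2 fold changes, TG against WT, of the tested genes, with members by role in red, other lists in grey, the number of genes in parentheses, a bar at each list's median and a dashed line at the median of all tested genes. The medians lie at -0.99 for the stress effectors and -0.36 for the further ATF4 and CHOP targets, whereas the medians of the chaperone and folding lists lie at -0.04 and -0.03. The stress effectors are only 5 genes, of which *Ddit4* lies at -0.30 and *Sesn3* at -0.13.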

How the data were processed

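Polyadenylated RNA of 2 WT and 2 TG libraries was sequenced strand-specifically from both ends. The authors used Rsubread for alignment to mm10 and counting, tested the counts with DESeq, and deposited FPKM values made from those counts with an R package. The counting annotation and strand setting are not given in the sources used here. Genes were placed by symbol on GRCm38 with GENCODE, and promoters came from RefSeq (GRCm38.p6).

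TG was compared with WT by limma 3.58.1 in R 4.3.3 on log2(FPKM + 0.5), with lmFit and a trended eBayes. The pseudocount understates changes of low genes. Genes with a mean FPKM under 0.5 were left out, and Benjamini-Hochberg adjustment ran over all 11524 genes tested. Thresholds follow the study. Whole reads were recovered for all 15530 genes above 0 from ratios of the FPKM values. They lay within 1e-06 of a whole read, or within the rounding of the value. Where several counts fitted, the smallest or those nearest the exon length were taken. For 1281 genes with under 60 reads in every library, a factor from the exon length was applied, so their counts depend on it. Library totals were the smallest multiple that held the reads on genes, which made up 98.6% to 98.7% of them. The reads served limma voom with median-ratio size factors. Of the members, 30 had 1000 reads or more over the 4 libraries. Tables were handled with pandas 2.3.3 and scipy 1.17.1 in Python 3.11.15. The main limma fit, but neither voom nor any other alternative, was run on simulated data. Its changes were larger than those of the members and its spread was assumed, not estimated from these libraries. The simulation therefore does not show which changes of the members' size the fit can detect.

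All 35 members are named. Of the other lists, called genes and the 2 highest and 2 lowest fold changes are named, and any gene beyond this rule was chosen after its values were seen. Members and lists were chosen with earlier results of these data known. Alternatives were a pseudocount of 1 or 0.1, a mean FPKM minimum of 1 or none, untrended variances, quantile normalization or upper-quartile scaling, a replicate block, each library left out, voom, and other thresholds.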

Additional observations from a re-analysis of the deposited data

How the results depend on the processing

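The count of all genes called was 54 lower and 70 higher in TG. It was 1 and 0 with no filter on low values, 6 and 3 with no variance trend, 8 and 12 with the replicate block and 149 and 119 with voom, and 55 and 47 with quantile normalization. It was 121 and 229 at an adjusted p under 0.05 with the same fold, and 178 and 298 with any fold. With 1 library left out it ran from 1 to 47 lower and from 0 to 66 higher, where the lone library of a genotype is assumed to vary like the other genotype's.

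Members called lower went from 0 to 3 with voom, and to 3 at an adjusted p under 0.05 with any fold. The 3 members lower at an adjusted p under 0.05 became 0 with no filter, with no variance trend and with the replicate block, and 0 or 1 with any 1 library left out (0 without WT 1 or WT 2), while the count higher ran from 0 to 1 and was 1 without TG 2. Same-numbered WT and TG libraries did not deviate together (r = -0.028 over 11524 genes) and share only a number. With the replicate block the adjusted p was 0.054 for *Asns*, 0.0731 for *Trib3* and 0.0763 for *Chac1*. The cause of these changes was not tested.

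Over all tested genes, the median log2 fold change of 0.07 became 0.0082 with upper-quartile scaling, -0.013 with quantile normalization and 0.0089 with voom. That of the chaperones was -0.16 with quantile normalization. That of the sensors was -0.36 with voom, and that of the stress-induced factors was -0.17, -0.18 and -0.16 with upper-quartile scaling, quantile normalization and voom. With 1 library left out, the medians ran from -0.41 to -0.22 for the sensors, from -0.26 to -0.10 for the stress-induced factors, from -0.97 to -0.79 for the effectors and from -0.33 to -0.17 for the degradation genes.

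Of 442 member values under 13 alternative fits, 398 kept their direction and side of an adjusted p of 0.05, 19 lost it, 2 gained it and 23 turned in sign. *Dnajc3* turned from 0.02 to -0.042 with upper-quartile scaling, -0.033 with quantile normalization and -0.039 with voom. The other 20 came from leaving out 1 library, in 16 members whose adjusted p was never under 0.05, with these lowest and highest log2 fold changes: *Hspa5* -0.022 to 0.33, *Hsp90b1* -0.18 to 0.078, *Canx* -0.076 to 0.0045, *P4hb* -0.29 to 0.21, *Dnajb9* -0.51 to 0.74, *Dnajc3* -0.19 to 0.23, *Sdf2l1* -0.13 to 0.74, *Atf6* -0.22 to 0.013, *Xbp1* -0.31 to 0.082, *Atf3* -0.41 to 0.89, *Ddit3* -0.26 to 0.061, *Ddit4* -0.97 to 0.36, *Sesn3* -0.29 to 0.034, *Syvn1* -0.38 to 0.076, *Sel1l* -0.24 to 0.14, *Derl1* -0.17 to 0.50. Depth limits the comparison most for *Derl3*, *Atf3*, *Dnajb9*, *Ern1* and *Sesn3*.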
